A study of Mus musculus with 12 samples.

Results

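The genes described here are 10 members of the fibroblast growth factor (FGF) system, 8 ligand genes (Fgf3, Fgf4, Fgf8, Fgf9, Fgf10, Fgf15, Fgf17 and Fgf18) and 2 receptor genes (Fgfr1 and Fgfr2). They were taken by symbol from a table of 35856 rows that gives the level of every gene in 12 RNA-seq libraries. Values are in TPM, a unit of relative transcript abundance that is scaled for transcript length and library size. All 10 were in the table, and 9 of them reached at least 1 TPM in at least 2 libraries, the filter used for testing. Fgf9 did not.

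The cells were cardiac precursors, mesoderm that can go on to form heart muscle, grown from C57BL/6 mouse embryonic stem cells. The question was what these cells express when they lack 1 of 3 subunits of Polycomb repressive complex 2. This enzyme complex, PRC2, methylates histone H3 at developmental genes and keeps them silent. Each of the 3 lines carried Tir1, a plant protein that sends tagged proteins to degradation when auxin is added, and an auxin-inducible degron (AID) tag on 1 subunit. SUZ12 belongs to the core of the complex. MTF2 and JARID2 are optional partners, each found in its own variant of it. The 6 groups were SUZ12-AID with auxin and untreated, MTF2-AID with auxin and untreated, and AID-JARID2 with auxin and untreated, with 2 biological replicate libraries each. Auxin was 50 µM indole-3-acetic acid; the labels used here do not give when it was added, whether each line is 1 clone, or an auxin-treated line without a tag. Every group spent 48 h as embryoid bodies, 43 h in reaggregates with VEGF, Activin A and BMP4, and 32 h as a monolayer with 5 ng/mL VEGF, 10 ng/mL basic FGF and 25 ng/mL FGF10. FGF protein was therefore supplied to all cells in the last stage, and the values below are those of the cells' own transcripts.

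FGF ligands are secreted proteins that bind receptor tyrosine kinases together with heparan sulfate on the cell surface. The receptors act largely through the RAS-ERK relay, which switches on target genes such as those of the ETV factors, and also its own inhibitors, the Sprouty proteins and the dual-specificity phosphatases. In the mouse embryo FGF8 and FGF4 are needed when mesoderm leaves the primitive streak, FGFR1 is the main receptor of that mesoderm, and FGF8 and FGF10 act later in the second heart field. FGF4 is also the ligand that embryonic stem cells make for themselves.

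Fgf3, Fgf4 and Fgf15 lie next to each other on chromosome 7, and Fgfr2 lies on the same chromosome. In RefSeq on GRCm38.p6, Fgf3 spans chr7:144838612-144843348, Fgf4 chr7:144861386-144865245 and Fgf15 chr7:144896532-144900953, all on the plus strand, and Fgfr2 spans chr7:130162451-130266808 on the minus strand. Fgf8 is at chr19:45736491-45742941 (minus), Fgf9 at chr14:58070671-58112854 (plus), Fgf10 at chr13:118714699-118792573 (plus), Fgf17 at chr14:70636203-70642268 (minus), Fgf18 at chr11:33116970-33147400 (minus) and Fgfr1 at chr8:25518759-25575718 (plus). The promoter windows of 3 of these genes are printed because their transcripts carry the main contrast of the data: Fgf3 and Fgfr2 moved together and Fgf4, 22.8 kb from Fgf3, moved the other way. Each window is the RefSeq sequence from 250 bases before to 50 bases after the annotated start, on the gene's own strand, and capitals mark CG, the dinucleotide that is dense in CpG islands.
Fgf3, chr7:144838362-144838661, plus strand: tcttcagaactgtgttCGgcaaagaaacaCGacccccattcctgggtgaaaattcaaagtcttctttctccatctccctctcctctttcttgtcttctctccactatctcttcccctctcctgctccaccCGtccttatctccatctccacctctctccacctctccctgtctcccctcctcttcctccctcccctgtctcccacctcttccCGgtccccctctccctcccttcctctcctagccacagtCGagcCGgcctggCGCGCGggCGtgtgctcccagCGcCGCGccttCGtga
Fgf4, chr7:144861136-144861435, plus strand: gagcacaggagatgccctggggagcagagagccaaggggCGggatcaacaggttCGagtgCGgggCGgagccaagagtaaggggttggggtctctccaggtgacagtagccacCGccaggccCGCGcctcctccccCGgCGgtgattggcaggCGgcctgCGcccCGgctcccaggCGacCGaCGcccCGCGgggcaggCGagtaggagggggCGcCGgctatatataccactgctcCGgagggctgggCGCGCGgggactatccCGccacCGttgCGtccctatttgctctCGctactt
Fgfr2, chr7:130266759-130267058, minus strand: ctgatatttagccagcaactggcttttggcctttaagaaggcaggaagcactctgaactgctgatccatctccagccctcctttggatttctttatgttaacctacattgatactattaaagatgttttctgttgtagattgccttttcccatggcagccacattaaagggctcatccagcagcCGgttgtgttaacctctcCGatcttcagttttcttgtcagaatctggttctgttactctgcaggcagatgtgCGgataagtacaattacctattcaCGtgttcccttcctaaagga

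The Fgf3 window holds 14 CG, the Fgf4 window 28 and the Fgfr2 window 4, against a median of 7 over 32851 mouse promoter windows of the same length. Of all these windows, 36.3% hold at least as many as Fgf3, 14.2% at least as many as Fgf4 and 68.6% at least as many as Fgfr2. The windows of 3 other members hold 12 (Fgf9), 10 (Fgf10) and 47 (Fgf18). The windows of the falling genes in AID-JARID2 ranged between 4 for Fgfr2 and 47 for Fgf18. Fgf4 was the only tested gene that rose and had a window, so the relation of CG count to direction was not tested. A window covers 1 annotated start, and the data do not say which start a gene used.

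The libraries held 10138920 to 17173072 reads in genes, recovered from the steps of the TPM values. The fewest and most reads of a member in any library were 4441 and 10487 for Fgfr1 but 12 and 117 for Fgf17, 16 and 61 for Fgf18, 17 and 308 for Fgf4 and 0 and 34 for Fgf9, so the last 4 are the least precise. The degron acts on the protein, so transcript levels of the tagged genes do not check it. Suz12 had 106 and 109 TPM with auxin and 113 and 127 TPM untreated in SUZ12-AID. Mtf2 had 26.0 and 24.7 TPM with auxin and 22.4 and 21.7 TPM untreated in MTF2-AID. Jarid2 had 104 and 113 TPM with auxin and 45.3 and 43.5 TPM untreated in AID-JARID2. Of 14 cardiac precursor markers, 12 or 13 averaged 1 TPM or more in every group. In AID-JARID2 with auxin, however, they summed to 421 to 495 TPM, below the 4390 to 4461 TPM of 12 epiblast and pluripotency markers in the same libraries. Of that cardiac sum Mesp1 averaged 260 TPM and Hand1 98.3 TPM, and Mesp1 is also among the primitive streak markers described below.

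**Figure D1:**
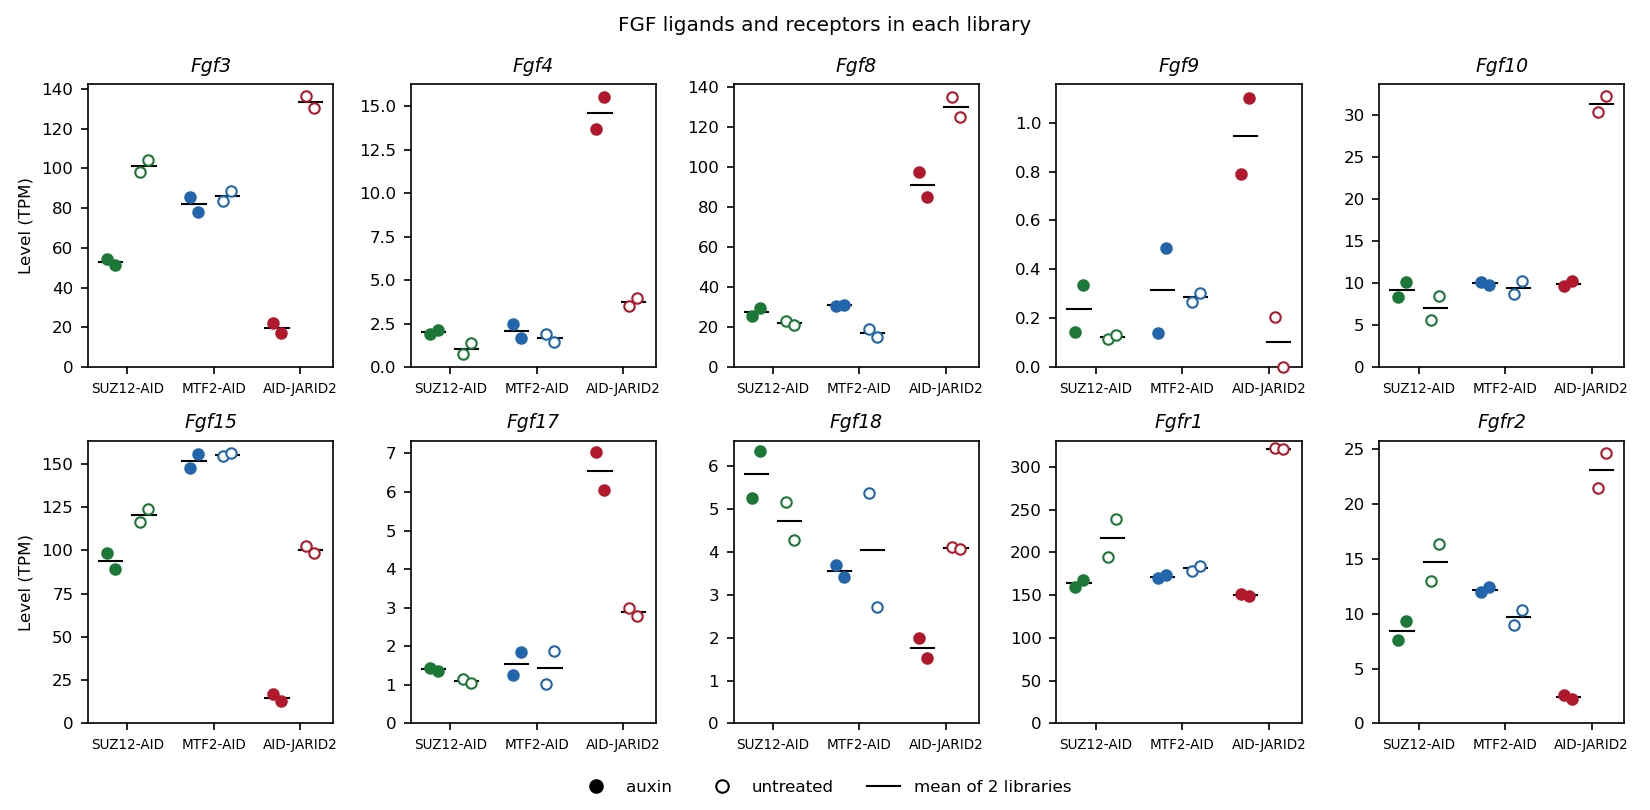
Level in TPM of each of the 10 FGF genes in each of the 12 libraries, by degron line; filled circles are auxin libraries, open circles untreated ones, and lines the mean of 2 libraries. In AID-JARID2, Fgf3 stood at 22.1 and 17.1 TPM with auxin and at 136 and 130.1 TPM untreated, while Fgf4 stood at 13.7 and 15.5 TPM with auxin and at 3.50 and 3.99 TPM untreated.

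In AID-JARID2 auxin was followed by a change in all 9 tested FGF genes, of which 7 fell (Fgf3, Fgf8, Fgf10, Fgf15, Fgf18, Fgfr1 and Fgfr2) and 2 rose (Fgf4 and Fgf17). Across all 15663 genes tested in this line, 36.5% changed, 17% downwards and 19.5% upwards. The changes reached a log2 fold change of -2.80 for Fgfr2 and 1.72 for Fgf4. Fold changes are auxin over untreated on the log2(TPM + 1) scale, which understates those of low genes, and a change was called at a Benjamini-Hochberg adjusted p below 0.05 in limma.

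Among the ligands, Fgf3 and Fgf15 fell the most in AID-JARID2. Fgf3, which acts in the primitive streak and in the inner ear, had 22.1 and 17.1 TPM in auxin libraries, against 136 and 130.1 TPM in untreated libraries. The untreated mean was 6.80 times the auxin mean, and the log2 fold change was -2.71 (SE 0.10, adjusted p = 4.38e-08). Fgf15, the mouse counterpart of human FGF19, had 16.8 and 12.7 TPM with auxin, against 102 and 98.3 TPM untreated. Its log2 fold change was -2.70 (SE 0.10, adjusted p = 4.79e-08), close to that of Fgf3, and in both genes the groups lay far apart.

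Fgf10 marks second heart field progenitors. It had 9.71 and 10.2 TPM with auxin, against 30.4 and 32.3 TPM untreated. The log2 fold change was -1.56 (SE 0.17, adjusted p = 5.41e-05). With auxin the level was within the range of the other lines, and the untreated AID-JARID2 libraries were the high ones. Fgf8, a ligand of the primitive streak and second heart field, had 97.2 and 84.8 TPM with auxin, against 135 and 124.7 TPM untreated. This was the smallest of the 9 changes (log2 fold change -0.51, SE 0.12, adjusted p = 0.0089), and it missed the threshold without auxin replicate 2 (adjusted p = 0.081) or without untreated replicate 1 (0.0668). Both conditions stayed above every library of the other lines.

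Fgf18, a member of the FGF8 subfamily known for its role in bone and lung, had 2.01 and 1.53 TPM with auxin, against 4.11 and 4.06 TPM untreated. The values rest on 18 and 16 reads with auxin and 34 and 30 reads untreated. The log2 fold change was -0.88 (SE 0.23, adjusted p = 0.0131), and it was not called without auxin replicate 2 (adjusted p = 0.0925), untreated replicate 1 (0.062) or untreated replicate 2 (0.0583).

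Fgf4 and Fgf17 rose. Fgf4, the ligand of stem cells and epiblast, had 13.7 and 15.5 TPM with auxin, against 3.50 and 3.99 TPM untreated, a mean 3.91 times as high (log2 fold change 1.72, SE 0.20, adjusted p = 8.63e-05). Fgf17, a close relative of Fgf8, had 7.03 and 6.05 TPM with auxin, against 3.00 and 2.78 TPM untreated (log2 fold change 0.95, SE 0.19, adjusted p = 0.00356). For both genes the auxin libraries of this line were the highest of the series. Fgf9, which signals to the growing heart muscle of the embryo, was near the limit of detection. It had 0.791 and 1.10 TPM with auxin, 21 and 34 reads, against 0.204 TPM (5 reads) and 0 reads in the untreated libraries, where 0 reads allow up to 3 reads, or 0.137 TPM. When the filter was left out, its log2 fold change was 0.82 (SE 0.15, adjusted p = 0.00519 over 26224 genes).

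Both receptors fell. Fgfr1, the receptor with the highest level in every group, had 152 and 149 TPM with auxin, against 322 and 321 TPM untreated (log2 fold change -1.09, SE 0.08, adjusted p = 4.19e-06). Fgfr2, a receptor of FGF10 in its epithelial form, had 2.62 and 2.27 TPM with auxin, against 21.5 and 24.6 TPM untreated (log2 fold change -2.80, SE 0.14, adjusted p = 3.39e-07). The fall of Fgfr2 was thus the steeper of the pair on this scale, and Fgfr1 kept a level of about 150.2 TPM. RNA from a whole culture cannot tell fewer cells of a type from less RNA per cell.

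The makeup of the ligand transcripts differed between the AID-JARID2 groups. The 8 ligands summed to 169 and 149 TPM with auxin, against 415 and 396 TPM untreated. Fgf3 and Fgf15 together made up 21.6% of the summed mean level with auxin and 57.6% untreated, whereas Fgf8 made up 57.2% and 32.0% and Fgf4 9.18% and 0.923%. Of these 8, Fgf8 had the highest mean TPM only in the AID-JARID2 auxin group; it was Fgf3 in untreated AID-JARID2 and Fgf15 in the other 4 groups. Fgf5, a ligand outside the 8, held 34.96% of the summed mean level of all 9 with auxin and 0.976% untreated, and with it counted Fgf8 made up 37.2% and 31.7%. Cardiac precursor markers summed to 421 to 495 TPM with auxin and 2741 to 2826 TPM untreated in this line, with 12 of 13 tested falling. Hand1 alone averaged 98.3 TPM with auxin and 1858 TPM untreated of these sums. Among all tested genes in this line 17% fell and 19.5% rose. Epiblast and pluripotency markers summed to 4390 to 4461 TPM with auxin and 1276 to 1281 TPM untreated, with 11 of 12 rising, and none of either list was at 0. The part of these markers in the FGF changes was not tested.

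**Figure D2:**
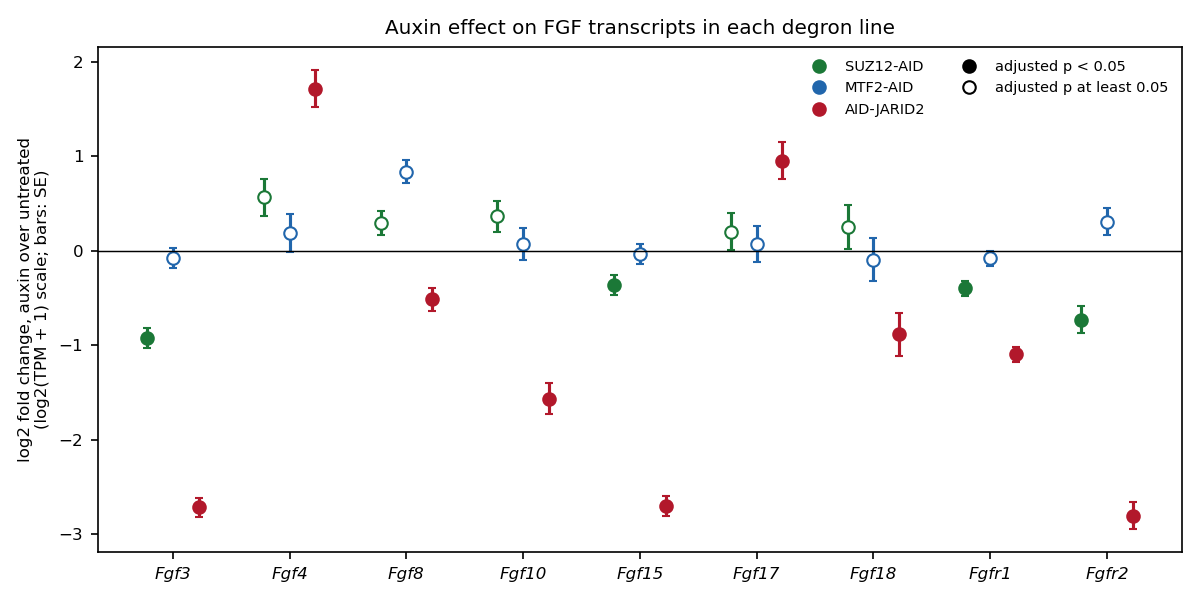
Log2 fold change, auxin over untreated, of the 9 tested FGF genes in each degron line on the log2(TPM + 1) scale; bars are standard errors, filled points have an adjusted p below 0.05 and open points do not. In AID-JARID2 all 9 points are filled and range between -2.80 (Fgfr2) and 1.72 (Fgf4), in SUZ12-AID 4 are filled, and in MTF2-AID none is.

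In SUZ12-AID auxin was followed by a fall of 4 of the 9 tested FGF genes, the ligands Fgf3 and Fgf15 and both receptors, and by no called rise. Across all tested genes in this line 19.1% changed, 4.05% downwards and 15.1% upwards. Increases made up 78.8% of all calls, but 57.6% with median-of-ratios scaling and 53.1% with quantile normalization. All 4 kept negative values under each scaling, but Fgf15 did not pass with quantile normalization (log2 fold change -0.34, adjusted p = 0.0597).

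Fgf3 had 54.6 and 51.6 TPM in SUZ12-AID with auxin, against 98.3 and 104 TPM untreated (log2 fold change -0.92, SE 0.10, adjusted p = 0.000353). The groups did not overlap, and the untreated mean was 1.91 times the auxin mean. Fgf15 had 98.2 and 89.0 TPM with auxin, against 116 and 124 TPM untreated (log2 fold change -0.36, SE 0.10, adjusted p = 0.0384). This call was lost in 14 of 22 alternatives, with adjusted p between 0.0537 and 0.256, so it is the least firm of the 4.

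Fgfr1 had 159.5 and 168 TPM with auxin, against 194 and 239.5 TPM untreated (log2 fold change -0.40, SE 0.08, adjusted p = 0.00762). Fgfr2 had 7.57 and 9.33 TPM with auxin, against 13.0 and 16.3 TPM untreated (log2 fold change -0.73, SE 0.14, adjusted p = 0.00672). In both receptors the auxin libraries lay below the untreated ones. With the 4 libraries of this line alone, neither was called (adjusted p = 0.161 for Fgfr1 and 0.129 for Fgfr2).

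The other ligands did not pass in SUZ12-AID. Fgf4 had 1.92 and 2.15 TPM with auxin, against 0.758 and 1.38 TPM untreated (log2 fold change 0.57, SE 0.20, adjusted p = 0.0725), and on the recovered reads it passed (0.0459). Fgf8 had 25.3 and 29.5 TPM with auxin, against 23.0 and 21.2 TPM untreated (log2 fold change 0.30, adjusted p = 0.132). Fgf10 had 8.31 and 10.2 TPM with auxin and 5.61 and 8.50 TPM untreated, with overlapping groups (log2 fold change 0.37, adjusted p = 0.168). The 5 ligands Fgf4, Fgf8, Fgf10, Fgf17 and Fgf18 thus had positive values of which none passed. Fgf17 had 1.45 and 1.37 TPM with auxin, against 1.14 and 1.05 TPM untreated, and Fgf18 had 5.27 and 6.36 TPM with auxin, against 5.17 and 4.28 TPM untreated. Their log2 fold changes of 0.20 and 0.25 turned to -0.13 and -0.08 with quantile normalization. Fgf9 had 0.145 and 0.334 TPM with auxin and 0.115 and 0.131 TPM untreated, which is 4 to 7 reads. The summed ligand level was 195 and 190.5 TPM with auxin and 250.4 and 265 TPM untreated. The cardiac precursor markers of this line summed to 1598 to 1688 TPM with auxin and 2684 to 2999 TPM untreated. Of 13 tested, 5 rose and 1 fell, beside 15.1% and 4.05% of all tested genes. The 1 that fell was Hand1, which averaged 1033 TPM with auxin and 2421 TPM untreated of these sums. Nkx2-5 and Hand2 were among those that rose. The part of these markers in the FGF values was not tested.

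In MTF2-AID auxin was followed by no called change in the 9 tested FGF genes. Only 10 of all tested genes passed in this line, or 0.0638%, with 0.0447% higher and 0.0192% lower. Increases were 70% of those calls, but 56.2% with median-of-ratios scaling and 52.9% with quantile normalization. In limma a single FGF gene, Fgf8, had an unadjusted p below 0.05. Fgf8 had 30.8 and 31.3 TPM with auxin, against 19.3 and 14.8 TPM untreated, without overlap (log2 fold change 0.84, SE 0.12, adjusted p = 0.0581). Fgf8 passed in 6 of 22 alternatives, with adjusted p between 0.0134 and 0.0460, and limma-voom on the recovered reads called 0 of the 9 genes.

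The most abundant ligand transcripts hardly differed between the MTF2-AID groups. Fgf3 had 85.7 and 78.1 TPM with auxin and 83.8 and 88.8 TPM untreated (log2 fold change -0.08, SE 0.10). Fgf15 had 148 and 155 TPM with auxin and 154 and 156 TPM untreated (log2 fold change -0.04, SE 0.10). In both genes the groups overlapped. Fgfr1 had 170.0 and 173 TPM with auxin and 178 and 185 TPM untreated (log2 fold change -0.08, SE 0.08). Fgfr2 had 11.97 and 12.4 TPM with auxin and 8.98 and 10.3 TPM untreated (log2 fold change 0.31, SE 0.14, adjusted p = 0.548), so it stood higher with auxin in both libraries without passing the test. Low ligands overlapped between the groups. Fgf4 had 2.46 and 1.66 TPM with auxin and 1.91 and 1.42 TPM untreated, and Fgf10 had 10.2 and 9.80 TPM with auxin and 8.70 and 10.3 TPM untreated. Fgf17 had 1.26 and 1.84 TPM with auxin and 1.02 and 1.87 TPM untreated, and Fgf18 had 3.71 and 3.42 TPM with auxin and 5.38 and 2.71 TPM untreated. The log2 fold changes of these 4 genes lay between -0.09 and 0.19 with SE of 0.17 to 0.23. Fgf9 had 3 to 11 reads per library in this line.

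The differences between the lines were tested themselves. The auxin effect in AID-JARID2 minus that in SUZ12-AID passed for 8 of 9 FGF genes, 7 with a lower and 1 with a higher value in AID-JARID2, against 24% of all tested genes, 15% lower and 9% higher. Over all genes, higher values made up 37.5% of these calls, but 48.6% with median-of-ratios scaling and 50.5% with quantile normalization. The difference was -2.34 for Fgf15 (SE 0.15, adjusted p = 4.33e-06), -2.08 for Fgfr2, -1.93 for Fgf10, -1.79 for Fgf3, -1.13 for Fgf18, -0.81 for Fgf8 and -0.70 for Fgfr1, and it was 1.15 for Fgf4 (adjusted p = 0.014). Fgf17 had a difference of 0.75 and missed the threshold (adjusted p = 0.0761). The calls of Fgf4 and Fgf18 in this difference were lost in 4 and 9 of 21 alternatives.

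The auxin effect in AID-JARID2 minus that in MTF2-AID passed for 8 of 9 genes, 6 lower and 2 higher, against 24.3% of all tested genes, 11.7% lower and 12.6% higher. This comparison shares the AID-JARID2 libraries with the one before. The difference was largest for Fgfr2 at -3.11 (SE 0.20, adjusted p = 4.17e-06), followed by Fgf15 at -2.66 and Fgf3 at -2.64. Fgf8, whose log2 fold change was -0.51 in AID-JARID2 and 0.84 in MTF2-AID, differed by -1.35 (SE 0.17, adjusted p = 0.000357). Fgf17 had a difference of 0.88 (adjusted p = 0.0424), a call lost in 13 of 21 alternatives, and Fgf18 missed the threshold at -0.79 (adjusted p = 0.11). Between MTF2-AID and SUZ12-AID, 2 of 9 genes differed in their auxin effect, against 11.1% of all tested genes, 2% higher and 9.11% lower. These were Fgf3 (0.84, SE 0.15, adjusted p = 0.006) and Fgfr2 (1.04, SE 0.20, adjusted p = 0.0109), both higher in MTF2-AID. Over all genes, higher values made up 18% of the calls in that comparison, but 35% with median-of-ratios scaling and 35.3% with quantile normalization.

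The untreated lines did not have the same FGF levels at the end of the culture, and no library shows the cells before auxin. Untreated AID-JARID2 was higher than untreated SUZ12-AID for 7 of 9 genes, against 27.6% of all tested genes called, 15.2% higher and 12.4% lower. The log2 difference was 2.50 for Fgf8 (SE 0.12, adjusted p = 8.07e-07), 2.03 for Fgf10, 1.21 for Fgf4, 0.89 for Fgf17, 0.62 for Fgfr2, 0.57 for Fgfr1 and 0.39 for Fgf3. Fgf8 thus stood at 135 and 124.7 TPM in untreated AID-JARID2, against 23.0 and 21.2 TPM in untreated SUZ12-AID. The call of Fgf3 was lost in 5 of 20 alternatives, among them median-of-ratios scaling (adjusted p = 0.0524).

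Untreated AID-JARID2 also differed from untreated MTF2-AID in 8 of 9 genes, against 33.4% of all tested genes, 15.8% higher and 17.6% lower. The same 7 genes were higher, with Fgf8 again first at a log2 difference of 2.87 (SE 0.12, adjusted p = 3.33e-07). Fgf15 was lower, with 102 and 98.3 TPM in untreated AID-JARID2, against 154 and 156 TPM in untreated MTF2-AID (log2 difference -0.62, adjusted p = 0.00129). Between untreated MTF2-AID and untreated SUZ12-AID, Fgfr2 alone passed, against 8.65% of all tested genes, 3.15% lower and 5.5% higher. Fgfr2 had 8.98 and 10.3 TPM in MTF2-AID, against 13.0 and 16.3 TPM in SUZ12-AID (log2 difference -0.55, adjusted p = 0.044), and the call was lost in 11 of 20 alternatives. Over all genes, higher values were 63.5% of the calls between these lines, but 50.8% with median-of-ratios scaling and 50.7% with quantile normalization.

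Primitive streak and early mesoderm markers stood apart in the same libraries as Fgf8. Their 12 genes summed to 1532 to 1605 TPM with auxin and 1627 to 1669 TPM untreated in AID-JARID2, against 198 to 268 TPM in the 8 libraries of the other lines. All 12 were higher in untreated AID-JARID2 than in each other untreated line, and none was at 0 in any group. Of all tested genes, 15.2% were higher than in untreated SUZ12-AID and 15.8% higher than in untreated MTF2-AID. Their part in the FGF levels was not tested. Line and culture cannot be told apart, since each line has its own untreated libraries.

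The order of the 6 groups differed between genes. For Fgf3 and Fgfr1 untreated AID-JARID2 had the highest mean, then untreated SUZ12-AID, untreated MTF2-AID, MTF2-AID with auxin, SUZ12-AID with auxin and AID-JARID2 with auxin; only the 2 MTF2-AID groups overlapped for Fgf3, and no neighbours did for Fgfr1. Fgfr2 had the same order except that MTF2-AID with auxin stood above its untreated group, which overlapped SUZ12-AID with auxin. For Fgf10 untreated AID-JARID2 stood alone at 31.4 ± 1.34 TPM (SD, n = 2) and the other 5 groups, with means of 7.06 to 10.00 TPM, overlapped their neighbours. For Fgf4 and Fgf17 both AID-JARID2 groups came first, auxin above untreated. For Fgf8 they came first too, but with untreated above auxin, and all 6 groups lay apart. Fgf15 alone was highest in MTF2-AID, whose groups overlapped, and Fgf18 was highest in SUZ12-AID, with auxin above untreated.

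Genes with the most similar profile over the 12 libraries were found by the root mean square difference of centred log2(TPM + 1) among 11155 genes. For Fgf3 the nearest was Fgfr2, at 0.22, ahead of Msx1, a homeobox factor of mesoderm and neural crest, and Padi3. For Fgf10 the nearest was Fn1, the gene of the matrix protein fibronectin, at 0.11, with 440.5 TPM with auxin and 1577 TPM untreated in AID-JARID2. Fgf15 was nearest to Bmp7, a bone morphogenetic protein, at 0.16, then to Crb2 and Vasn. Fgf8 was nearest to Irf1 (0.19), Vrtn and Hist1h1c, and Fgf4 to Tmem8 (0.14), Grik3 and Tuba4a. Fgfr2 was nearest to Cpne4 (0.21). In each of these members an AID-JARID2 group had the highest or the lowest mean. The share of the AID-JARID2 libraries in the likeness was not measured, and the profiles describe these 12 libraries only. For Fgf8 the larger contrast was between AID-JARID2 and the other lines. Its log2 fold change in AID-JARID2 was -0.51, beside 2.50 and 2.87 between untreated AID-JARID2 and the other untreated lines. Irf1 had 127 TPM with auxin and 145 TPM untreated in AID-JARID2.

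**Figure D3:**
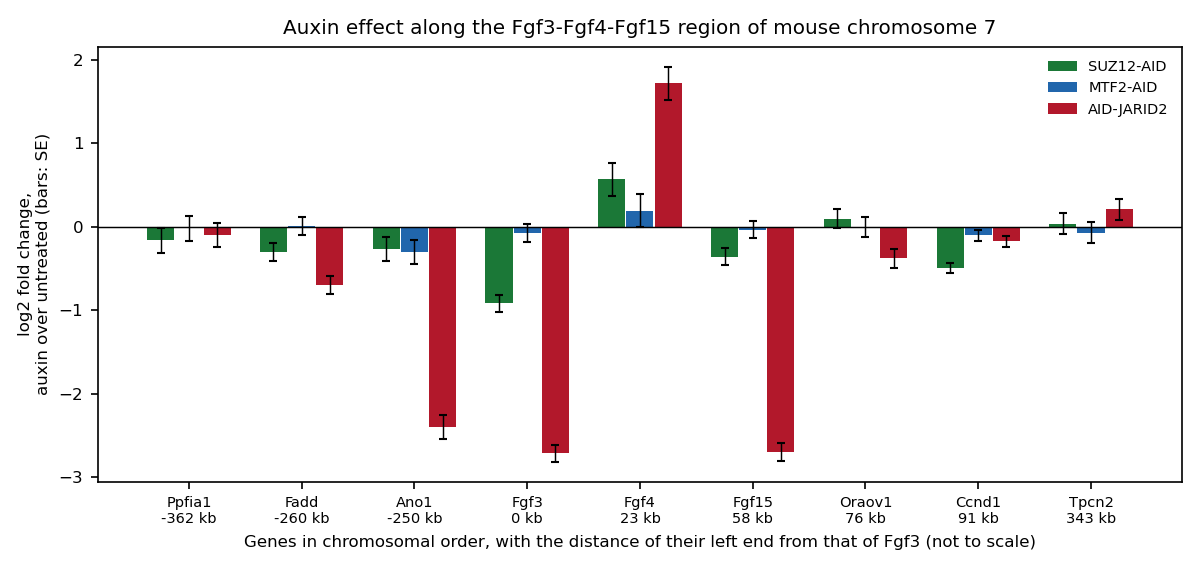
Log2 fold change, auxin over untreated, of the tested genes around Fgf3, Fgf4 and Fgf15 on mouse chromosome 7 in chromosomal order, with the distance of each left end from that of Fgf3; bars are grouped by line and error bars are standard errors. In AID-JARID2, Fgf4 (1.72) stands between Fgf3 (-2.71) and Fgf15 (-2.70).

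The neighbours Fgf3, Fgf4 and Fgf15 did not move as a block. In AID-JARID2, Fgf4 rose between the falling Fgf3 and Fgf15. Of the 6 other tested genes of the region 3 fell, beside 17% of all tested genes in this line. Ano1, a chloride channel gene whose left end is at -250.1 kb from that of Fgf3, had 0.942 ± 0.152 TPM with auxin and 9.23 ± 0.588 TPM untreated (SD, n = 2 each; log2 fold change -2.40, adjusted p = 9.69e-07). Fadd, an adaptor of death receptors, and Oraov1 fell less, with log2 fold changes of -0.70 and -0.38. Ccnd1, the cyclin D1 gene 91.3 kb from Fgf3, had 170.3 ± 3.57 TPM with auxin and 192 ± 9.64 TPM untreated and did not pass (log2 fold change -0.17, adjusted p = 0.0591). Ppfia1 (-0.10) and Tpcn2 (0.21) did not pass either, and Mrgprf was below the filter.

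In SUZ12-AID, Ccnd1 fell beside Fgf3 and Fgf15, with 154 ± 8.47 TPM with auxin and 217 ± 16.6 TPM untreated (log2 fold change -0.50, adjusted p = 0.000711). No gene of the region passed in MTF2-AID. The annotation places antisense genes over Fgf15 (Gm26793, 0.488 to 5.19 TPM, and Gm39119, at most 0.161 TPM), over Fgf10 (Gm16263, at most 0.0541 TPM) and over Fgfr1 (Gm16159, at 0 in every library). The libraries mark strand, but whether the counting used it is not given in the sources used here.

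Outside the 10 genes, Fgf5 was the ligand with the largest change. It is a marker of the epiblast and a regulator of the hair cycle. In AID-JARID2 Fgf5 had 83.2 and 87.9 TPM with auxin, against 4.46 and 3.53 TPM untreated (log2 fold change 4.12, SE 0.16). In SUZ12-AID it had 2.598 and 2.25 TPM with auxin, against 0.485 and 0.556 TPM untreated (log2 fold change 1.17, adjusted p = 0.000971), and in the MTF2-AID libraries it had 0.262 to 0.585 TPM. Fgf5 and Fgf21 were the only 2 of 10 other secreted FGF genes past the filter, and Fgf21, a metabolic hormone gene with 0 to 22 reads per library, passed in no line. Of the intracellular FGF homologous factors, which do not act on FGF receptors, 2 of 4 were tested. Fgf13 rose in AID-JARID2 (log2 fold change 0.52) and SUZ12-AID (0.62), and Fgf11 rose in AID-JARID2 (0.92, with 0.466 to 2.04 TPM in this line). With quantile normalization 1 of these 2 genes passed in AID-JARID2 and 0 in SUZ12-AID.

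Of the other receptors, Fgfr3, a brake on bone growth, fell with the 2 described above. In AID-JARID2 it had 2.49 and 1.94 TPM with auxin, against 25.7 and 24.5 TPM untreated (log2 fold change -3.03, SE 0.14). Fgfrl1, a receptor without the kinase domain, had 13.1 and 11.7 TPM with auxin, against 28.1 and 25.3 TPM untreated (log2 fold change -1.04, SE 0.09). Fgfr4 had at most 1.78 TPM in any library and rose in SUZ12-AID (log2 fold change 0.88, adjusted p = 0.0226), a call that was lost with quantile normalization. None of the 3 passed in MTF2-AID.

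Co-receptors and FGF-binding proteins gave 5 tested genes of 9. All 5 rose in SUZ12-AID, and 4 did with either other scaling; their median log2 fold change was 1.09, beside 0.06 over all genes. They were Fgfbp1 and Fgfbp3, carriers that release FGFs from the matrix, the membrane proteins Flrt2 and Flrt3, and Cnpy1. In AID-JARID2, Fgfbp1 and Cnpy1 rose and Flrt3 fell. Fgfbp1 had 24.8 and 23.4 TPM with auxin, against 1.13 and 2.21 TPM untreated in AID-JARID2 (log2 fold change 3.26, SE 0.24), and 3.89 and 4.78 TPM with auxin, against 0.692 and 1.02 TPM untreated in SUZ12-AID (1.52, SE 0.24). Flrt3 had 24.9 and 24.5 TPM with auxin, against 10.5 and 11.7 TPM untreated in SUZ12-AID (log2 fold change 1.09, SE 0.13).

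**Figure D4:**
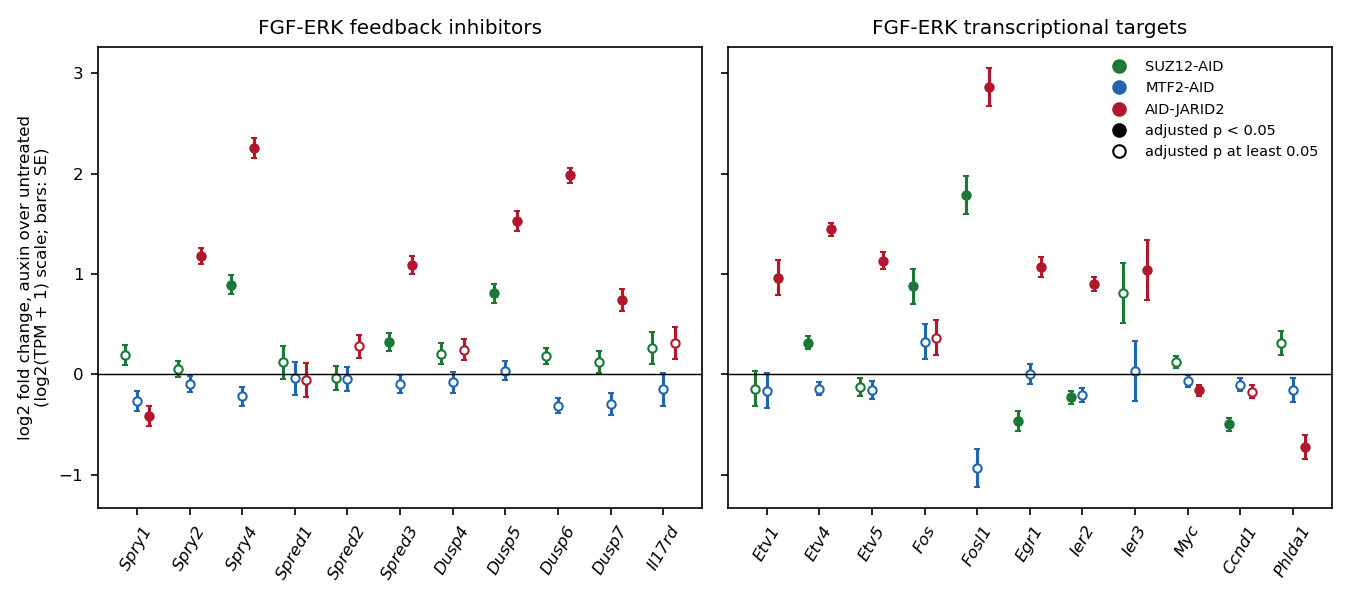
Log2 fold change, auxin over untreated, of 11 feedback inhibitors (left) and 11 transcriptional targets (right) of FGF-ERK signalling in each line; bars are standard errors, and filled points have an adjusted p below 0.05. In AID-JARID2 the largest values are those of Spry4 (2.25) and Dusp6 (1.98) on the left and Fosl1 (2.86) and Etv4 (1.45) on the right.

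Genes that ERK signalling is known to induce were set beside the FGF genes in AID-JARID2, where 19.5% of all tested genes rose and 17% fell. Of 11 feedback inhibitors, 6 rose and 1 fell, with a median log2 fold change of 0.74 beside 0.01 over all genes. Dusp6, a phosphatase that inactivates ERK, had 509 ± 34.8 TPM with auxin and 128 ± 3.73 TPM untreated (SD, n = 2 each; log2 fold change 1.98, adjusted p = 4.38e-08). The Sprouty genes Spry4 and Spry2 averaged 69.8 ± 4.20 and 98.8 ± 0.0798 TPM with auxin, against 13.9 ± 1.45 and 43.2 ± 2.68 TPM untreated. Dusp5 rose as well (1.53), and Spry1 fell (-0.41). The list summed to 1049 to 1122 TPM with auxin and 478 to 485 TPM untreated.

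Of 11 transcriptional targets, 7 rose and 2 fell in AID-JARID2, with a median log2 fold change of 0.96. Etv4 and Etv5, ETS-family factors, averaged 171 ± 3.42 and 141 ± 4.26 TPM with auxin, against 62.3 ± 2.12 and 63.8 ± 1.44 TPM untreated. Fosl1, part of the AP-1 factor, had 10.3 ± 2.38 TPM with auxin and 0.542 ± 0.128 TPM untreated, and Egr1 had 56.0 ± 3.36 TPM with auxin and 26.1 ± 1.74 TPM untreated. Myc and Phlda1 were those that fell, Phlda1 with a log2 fold change of -0.73 and Myc with -0.16, at an adjusted p of 0.04998. All these transcripts answer to other inputs of ERK too.

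In SUZ12-AID, 3 of 11 feedback inhibitors rose (Spry4, Dusp5 and Spred3) and none fell, and 3 of 11 targets rose and 3 fell, beside 15.1% rising and 4.05% falling among all tested genes. These counts moved with the scaling: with quantile normalization 2 feedback inhibitors rose and 1 fell, and with median-of-ratios scaling 2 targets rose and 4 fell. Spry4 had 24.4 ± 2.05 TPM with auxin and 12.6 ± 0.238 TPM untreated (log2 fold change 0.89, adjusted p = 0.000297). Fosl1 had 19.6 ± 1.66 TPM with auxin and 5.02 ± 1.19 TPM untreated (1.78), while Egr1 had 49.5 ± 4.57 TPM with auxin and 68.9 ± 7.87 TPM untreated (-0.47). In MTF2-AID none of either list passed, and no called gene of these lists turned its direction with either other scaling. The rise of Spry4 was larger in AID-JARID2 than in SUZ12-AID by 1.36 (SE 0.14, adjusted p = 9.09e-05), and the value of Dusp6 by 1.80 (SE 0.11, adjusted p = 2.86e-06).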

How the data were processed

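Stranded poly(A) RNA-seq libraries were made per the labels' protocols. Per the submitters' processing notes, reads were aligned with STAR 2.6.1d to mm10; the program and annotation behind the deposited TPM values, and whether counting used strand, are not stated there or in the labels. The authors deposited 1 table of TPM for 35856 rows and 12 libraries. Whole reads were recovered from the steps of the TPM values (100% of values above 0, within 0.005 reads).

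The 15663 genes that reached 1 TPM in 2 or more libraries were tested in limma 3.58.1 (R 4.3.3) on log2(TPM + 1), with 1 term per group, all 12 libraries, a variance trend and 6 residual degrees of freedom. P-values were two-sided and Benjamini-Hochberg adjusted over all tested genes, with a threshold of 0.05; they measure the spread between libraries, and intervals and floors cover counting error only. Effects of lines were compared as contrasts of the same fit. The procedure was tested on simulated data. Alternatives were other pseudocounts, filters, scalings and weights, the line alone, a replicate block, limma-voom on recovered reads, and each library left out.

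The members and gene lists were chosen with earlier results of these data known. All 10 members and all genes of the region are named. Named too are the other FGF, receptor and co-receptor genes with a group mean of at least 1 TPM. Of other lists, up to 4 called genes per line were selected by the largest absolute fold change. They had at least 5 TPM in the higher group. Only some of the selected genes are named here. For members whose group means span at least 2 on the log2 scale, the 3 genes of most similar profile are named. The exceptions are Fgf10 and Fgfr2, for which only the nearest is reported here. Spry1, Spred3, Myc and Phlda1 were named after their values were seen. Promoter sequences were available for 6 members in the RefSeq table of GRCm38.p6.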

Additional observations from a re-analysis of the deposited data

Results flagged for a closer look

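The auxin effect of 9 FGF genes was flagged because it differed between degron lines by a test of the difference itself in limma; values are differences of log2 fold changes. Between AID-JARID2 and SUZ12-AID, the ligands Fgf15 (-2.34), Fgf10 (-1.93), Fgf3 (-1.79), Fgf18 (-1.13) and Fgf8 (-0.81) and the receptors Fgfr2 (-2.08) and Fgfr1 (-0.70) had the lower effect in AID-JARID2, and Fgf4 (1.15) had the higher one. Between AID-JARID2 and MTF2-AID, the lower effects were those of Fgfr2 (-3.11), Fgf15 (-2.66), Fgf3 (-2.64), Fgf10 (-1.63), Fgf8 (-1.35) and Fgfr1 (-1.01), and the higher ones those of Fgf4 (1.53) and Fgf17 (0.88). Between MTF2-AID and SUZ12-AID, Fgf3 (0.84) and Fgfr2 (1.04) had the higher effect in MTF2-AID. Untreated libraries of the lines differed in several of these genes, and the part of that difference was not tested.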

How the results depend on the processing

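Over 22 alternatives, 556 of 594 auxin-against-untreated values of the FGF members kept direction and side of the threshold, 21 lost and 10 gained the call and 7 reversed. Among 567 differences between lines the counts were 525, 26, 11 and 5, and among 540 values between untreated lines 498, 24, 15 and 3. The cause was not tested unless named.

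Reversed values belonged to uncalled genes. With quantile normalization, Fgf17 (-0.13) and Fgf18 (-0.080) reversed in SUZ12-AID, and the difference MTF2-AID minus SUZ12-AID became 0.28 for Fgf17 and 0.0089 for Fgf18. Leaving out each library reversed the others. In MTF2-AID the range was -0.072 to 0.00091 for Fgf15, -0.036 to 0.18 for Fgf10, -0.18 to 0.33 for Fgf17 (-0.09 without auxin replicate 2) and -0.48 to 0.30 for Fgf18. For MTF2-AID minus SUZ12-AID it was -0.38 to 0.12 for Fgf17 (0.04 without MTF2-AID auxin replicate 1) and -0.73 to 0.047 for Fgf18. For untreated AID-JARID2 minus MTF2-AID it was -0.33 to 0.46 for Fgf18, and for untreated MTF2-AID minus SUZ12-AID -0.050 to 0.45 for Fgf17 and -0.62 to 0.16 for Fgf18. The 2 MTF2-AID untreated libraries, with 5.38 and 2.71 TPM of Fgf18, gave the ends of each Fgf18 range.

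Members called in SUZ12-AID numbered 1 in place of 4 with the line alone. In MTF2-AID 1 member passed in place of 0 with pseudocount 5, the filter at 5 TPM or variance weights. Between untreated MTF2-AID and SUZ12-AID, in place of 1, 2 members passed with pseudocount 5, the filter at 5 TPM or median-of-ratios scaling, 4 with voom, and 0 with no filter or with variance weights. Leaving out each library gave 7 to 9 members in AID-JARID2, 0 to 1 in MTF2-AID and 3 to 5 in SUZ12-AID; 6 to 9, 7 to 9 and 2 to 3 for AID-JARID2 minus SUZ12-AID, AID-JARID2 minus MTF2-AID and MTF2-AID minus SUZ12-AID; and 5 to 8, 6 to 8 and 0 to 2 for the same pairs untreated. A group left with 1 library was assumed to vary like the others.

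The labels do not say what a replicate number shares. Deviations of same-numbered libraries had correlations of 0.0958 in SUZ12-AID, -0.0388 in MTF2-AID and 0.00803 in AID-JARID2. With 2 libraries per group these values cannot settle whether libraries were paired. With the replicate block 5 members passed in SUZ12-AID, 0 in MTF2-AID and 9 in AID-JARID2, Fgf4 being the added one in SUZ12-AID (adjusted p = 0.0357), and of all genes 3333, 4 and 6324 in the same lines. It added Fgf17 to AID-JARID2 minus SUZ12-AID (adjusted p = 0.0379) and Fgfr1 to MTF2-AID minus SUZ12-AID (0.0498). Over all genes, the line alone called 156 in SUZ12-AID against 2997, 0 in MTF2-AID against 10 and 6396 in AID-JARID2 against 5710. The variance weights were 0.5 for SUZ12-AID, 1.29 for MTF2-AID and 1.54 for AID-JARID2, a lower weight standing for a wider spread between libraries. With them 1194 genes were called in SUZ12-AID, 164 in MTF2-AID and 7512 in AID-JARID2. They gave 1103 calls for MTF2-AID minus SUZ12-AID and 845 between untreated MTF2-AID and SUZ12-AID. MTF2-AID had 16 calls with median-of-ratios scaling, 17 with quantile normalization, 30 with pseudocount 5, 6 with 0.1 and 21 with no filter. Without auxin replicate 2, SUZ12-AID had 1374. Low reads limit Fgf4, Fgf9, Fgf17 and Fgf18.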

Other observations

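Heparan sulfate proteoglycans act as co-receptors of FGFs at the cell surface. Of 22 heparan sulfate enzymes and proteoglycans, 4 rose and 8 fell in AID-JARID2, and 5 rose and 2 fell in SUZ12-AID; with either other scaling 4 rose and 11 fell in AID-JARID2, and 5 rose and 5 fell in SUZ12-AID. Among all tested genes 19.5% rose and 17% fell in AID-JARID2, and 15.1% rose and 4.05% fell in SUZ12-AID. Gpc3, a glypican of mesoderm, had 177 ± 2.38 TPM with auxin and 769 ± 13.7 TPM untreated in AID-JARID2 (SD, n = 2 each; log2 fold change -2.12). Gpc4 had 23.4 ± 1.28 TPM with auxin and 3.40 ± 0.295 TPM untreated in the same line (2.47), and 7.67 ± 1.08 TPM with auxin and 2.85 ± 0.0630 TPM untreated in SUZ12-AID (1.16). The syndecan gene Sdc4 had 84.6 ± 7.90 TPM with auxin and 37.2 ± 1.72 TPM untreated in SUZ12-AID (1.16). Gpc1 fell in SUZ12-AID, with 50.8 ± 0.607 TPM with auxin and 86.0 ± 4.89 TPM untreated (-0.75).

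Of 21 receptor adaptors and RAS-ERK relay genes, 3 rose and 9 fell in AID-JARID2, and 1 rose and 1 fell in SUZ12-AID, to be read beside the same shares of all tested genes. With quantile normalization 12 fell in AID-JARID2. Mapk3, which encodes ERK1, had 187 ± 5.94 TPM with auxin and 367 ± 3.19 TPM untreated in AID-JARID2 (log2 fold change -0.97), and 319 ± 9.18 TPM with auxin and 391 ± 5.26 TPM untreated in SUZ12-AID (-0.30). Shc1, an adaptor of receptor tyrosine kinases, rose in AID-JARID2, with 121 ± 4.06 TPM with auxin and 78.8 ± 0.292 TPM untreated (0.61). Gab1 was the 1 that rose in SUZ12-AID, with 27.1 ± 5.27 TPM with auxin and 18.0 ± 3.91 TPM untreated (0.57). In AID-JARID2 Gab1 fell, with 7.39 ± 0.151 TPM with auxin and 13.6 ± 1.09 TPM untreated (-0.80). None of either list passed in MTF2-AID.

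Marker lists of other cell types also differed between groups, and their part in the FGF values was not tested. Their counts are to be read beside the shares of all tested genes, 19.5% rising and 17% falling in AID-JARID2 and 15.1% and 4.05% in SUZ12-AID. Between these untreated lines 12.4% were lower in AID-JARID2. Neural markers summed to 511 to 528 TPM with auxin and 119 to 127 TPM untreated in AID-JARID2, where 4 of 6 tested rose, and 5 of 6 rose in SUZ12-AID. Surface ectoderm markers summed to 4055 to 4501 TPM with auxin and 2417 to 2554 TPM untreated in SUZ12-AID, where 8 of 9 tested rose. In AID-JARID2 they summed to 2138 to 2265 TPM with auxin and 2232 to 2326 TPM untreated, while 6 of 9 rose and 2 fell. Epiblast and pluripotency markers summed to 614 to 692 TPM with auxin and 524 to 545 TPM untreated in SUZ12-AID, where 8 of 12 rose and 1 fell. Endothelial markers summed to 259 to 278 TPM with auxin and 207 to 218 TPM untreated in SUZ12-AID, where 8 of 10 rose and 1 fell, and all 10 were lower in untreated AID-JARID2 than in untreated SUZ12-AID. In MTF2-AID they summed to 159 to 170 TPM with auxin and 230 to 234 TPM untreated. None of them was called there, beside 0.0638% of all tested genes. With median-of-ratios scaling 2 of them fell in MTF2-AID, beside 7 of all 15663 tested genes. Trophoblast markers, a list that shares Hand1 with the cardiac one, summed to 115 to 132 TPM with auxin and 2006 to 2072 TPM untreated in AID-JARID2, with 3 of 8 tested rising and 4 falling. Hand1 alone averaged 98.3 TPM with auxin and 1858 TPM untreated of these sums, and the defining genes Elf5 and Tpbpa were at 0 in both groups. In SUZ12-AID 5 of the 8 rose and 2 fell. Endoderm markers summed to between 17.8 and 25.4 TPM in all libraries. Of 3 tested, 2 rose and 1 fell in SUZ12-AID, and 1 rose in AID-JARID2. The 1 that fell was Gsc, with 11.9 ± 0.0491 TPM with auxin and 18.8 ± 1.23 TPM untreated (log2 fold change -0.61).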
